A study of Mus musculus with 2 samples.

Results

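The chemokine receptors described here are 9 genes of gut and effector T cells: Ccr1, Ccr2, Ccr4, Ccr6, Ccr8, Ccr9, Cxcr3, Cxcr6 and Gpr15. They were chosen by name, as every probe set of the deposited array table whose gene symbol equals one of these 9, which gave 19 probe sets out of 37783 that carry 1 symbol, for 9 genes out of 20664. RNA came from intraepithelial lymphocytes (IEL), which reside within the epithelium of the gut. They were isolated from the small intestine of RAG knockout mice, strain C57BL/6, 8 weeks after naive CD4 T cells had been transferred to induce colitis. RAG knockout hosts cannot rearrange antigen receptors, so T cells stem from the transfer, while the host's innate lymphoid and myeloid cells remain. The IEL were sorted into CD4 IEL, which lacked CD8 alpha, and CD4CD8aa IEL, which carried CD4 and CD8 alpha together, and RNA of each was hybridised to 1 single-colour Affymetrix Mouse Genome 430 2.0 array. With 1 array per group there is no replicate, no error between animals and no test, and how many mice were pooled for each RNA is unstated.

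Chemokine receptors are G protein-coupled receptors through which a T cell moves along a gradient of chemokine, and the set that a T cell carries is tied to its effector type and to the tissue it enters. Ccr9 and its ligand Ccl25 guide T cells to the small intestine, Ccr6 is the receptor for Ccl20 on Th17 cells, and Cxcr3 is the receptor of Th1 and cytotoxic cells for chemokines induced by interferon gamma. Cxcr6 binds Cxcl16, a chemokine that can stay anchored in the cell membrane, and is carried by many tissue-resident lymphocytes.

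In CD4CD8aa IEL, 7 of the 9 receptors had signals at least 2-fold lower than in CD4 IEL, none was 2-fold higher, and Ccr9 and Cxcr3 lay within 2-fold. The inflammatory receptors Ccr1 and Ccr2 were at least 21.1-fold and 18.7-fold lower, and Ccr6 was 10.4-fold lower. Ccr8 was at least 4.91-fold lower, Ccr4 4.21-fold, Cxcr6 3.71-fold and Gpr15 2.60-fold. Among all 17377 detected genes, 6.26% were at least 2-fold lower and 6.66% at least 2-fold higher. The median log2 difference (CD4CD8aa IEL minus CD4 IEL) was -2.07 over the receptors and 0.06 over all detected genes. Where a gene has several probe sets, the brightest by mean log2 signal gives its value, signals are multiples of the array median, and signals under a floor of 0.4 were raised to it, so that a fold against a signal at the floor is a lower bound.

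All 9 receptors were above the floor on at least 1 array, and 7 on both. Ccr1 and Ccr8 were above it on the CD4 array alone, and such genes can only differ in 1 direction. Of the 7 that were above the floor on both arrays, 5 were at least 2-fold lower in CD4CD8aa IEL, against 4.2% of all genes above the floor on both. At least 4-fold lower were 5 of the 9, against 0.961% of detected genes, while 0.397% of detected genes and none of the 9 were at least 4-fold higher. Of the 8 receptors brighter than 2 times the array median on their brighter array, 6 were at least 2-fold lower and none higher, against 3.91% and 3.46% of genes as bright. All 9 had a difference below 0, against 45.2% of detected genes.

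**Figure D1:**
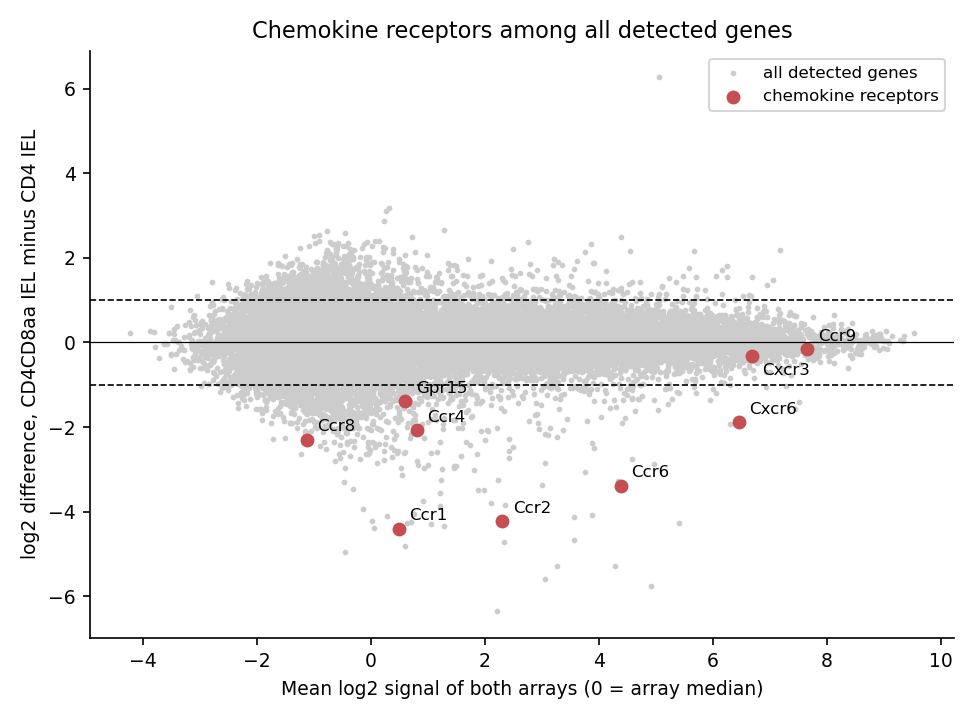
Each point is 1 detected gene, with the mean log2 signal of both arrays on the x axis (0 is the array median) and the log2 difference, CD4CD8aa IEL minus CD4 IEL with signals floored, on the y axis. The 9 receptors are red, dashed lines mark 2-fold, and 7 receptors lie below the lower line, with Ccr9 and Cxcr3 near 0.

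With 1 array per group, only the scatter among a gene's own probe sets can serve as a spread. Around their gene's mean, such log2 differences scattered with an SD of 0.81 in the dimmest band of signal, under the array median, and of 0.35 in the brightest, over 64 times it. Transcript variants add to this SD, and variation between mice or RNA preparations does not enter it. Against it, the differences of Ccr6 and Cxcr6 were 8.24 and 5.33 times the SD at their signal, those of Ccr4 and Gpr15 3.12 and 2.08 times, and those of Cxcr3 and Ccr9 0.897 and 0.456 times. Ccr2 was 9.32 times the SD at its brightest probe set, but its own 4 probe sets ranged from -4.23 to -1.21. Ccr1 and Ccr8 have bounds, which have no place in an order of differences, and that of Ccr2 depends on the probe set. Among the other 6, Ccr4 and Cxcr6 were 0.18 log2 units apart, Cxcr6 and Gpr15 0.51, and Cxcr3 and Ccr9 0.16, each gap smaller than the combined SD of its pair. The gap from Gpr15 to Cxcr3, 1.06, was larger than the combined SD of 0.75, but Gpr15 was at -0.30 under a floor of 2 array medians, next to Cxcr3 at -0.32. Brightness depends on the probes, so signals of different receptors were not ranked against each other.

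Ccr9, the receptor for small-intestinal homing, was bright and close on both arrays. Its brightest probe set, 1427419_x_at, read 213 in CD4 IEL against 190.4 in CD4CD8aa IEL, or 17574 against 15443.8 before division by the array median, a log2 difference of -0.16. The suffix x marks probes that may also hybridise to other genes. The next probe set, 1421920_a_at, which is without that mark, had 95.3 and 78.6, a log2 difference of -0.28. All 6 Ccr9 probe sets were above the floor on both arrays, and their differences ranged from -1.30 to 0.51. The lowest value came from 1436065_at, with signals of 4.69 and 1.90, which was the only one of the 6 to reach 2-fold. The probe sets 1442758_at and 1446038_at, with signals under 2 times the array median, were slightly higher in CD4CD8aa IEL, by 0.22 and 0.51.

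Gpr15, a receptor related to the chemokine receptors that directs T cells to the large intestine, was dim. Its single probe set, 1431296_at, read 2.46 in CD4 IEL and 0.943 in CD4CD8aa IEL (202.7 and 76.5 before division), which is -1.38 on the log2 scale. Under a floor of 2 array medians this difference was -0.30. The deposited table gives this probe set the symbol Gpr15 in one column and Cpox, a gene of haem synthesis, in another. Cpox is the neighbour of Gpr15 on chromosome 16 in RefSeq. The 3 probe sets that carry Cpox as their symbol had log2 differences of -0.12, -0.13 and 0.43, beside -1.38 for the probe set listed under Gpr15. Which gene the latter measures was not tested. Without Gpr15, 6 of 8 receptors were at least 2-fold lower.

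Ccr6, the Ccl20 receptor of Th17 cells, has 1 probe set, 1450357_a_at, which read 67.5 in the CD4 sample and 6.47 in the CD4CD8aa sample (5572.7 and 524.9 before division). Both signals lay well above the floor, and the log2 difference of -3.38 was the same under each floor tried, up to 4 times the array median. With signals floored at 0.4, which shortens the differences of dim genes, 31 of the detected genes, 0.178%, had a lower difference.

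Cxcr3 and Cxcr6, receptors of type 1 and cytotoxic T cells, were bright on both arrays but differed unequally. Cxcr3, at its single probe set 1449925_at, read 114.9 and 92.2 (9478.7 and 7474.2 before division), and its log2 difference of -0.32 was smaller than the same-gene SD. Cxcr6 had 169 and 45.5 at 1425832_a_at (13903.3 and 3686.6 before division) and 141 and 42.8 at 1422812_at. The log2 differences of these 2 Cxcr6 probe sets, -1.89 and -1.72, were closer to each other than the same-gene SD of 0.35, and 193 detected genes, 1.11%, had a lower difference than the first at the same floor. Cxcr6 was still at 45.5 times the array median in CD4CD8aa IEL while it was 3.71-fold lower.

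**Figure D2:**
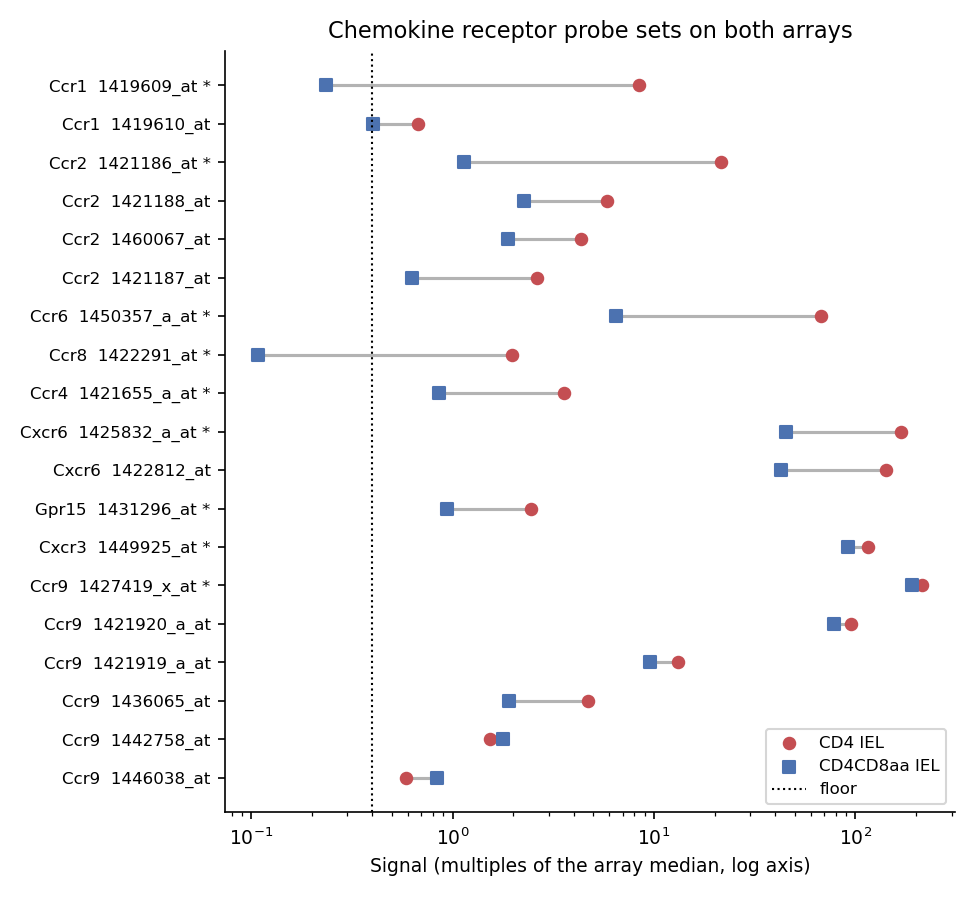
Signal of each of the 19 probe sets, in multiples of the array median on a log axis, with CD4 IEL as red circles and CD4CD8aa IEL as blue squares. The dotted line is the floor of 0.4, an asterisk marks the probe set that gives the gene's value, and 17 of the 19 circles lie to the right of their squares.

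Ccr1 and Ccr2, receptors for inflammatory chemokines that monocytes and effector T cells carry, were lower in CD4CD8aa IEL by amounts that varied with the probe set and the floor. Ccr2 read 21.4 and 1.14 at its brightest probe set, 1421186_at (1768.8 and 92.8 before division), a log2 difference of -4.23. Its other 3 probe sets were 5.86 and 2.27, 4.34 and 1.88, and 2.62 and 0.629, with differences of -1.37, -1.21 and -2.06. All 4 Ccr2 probe sets were above the floor on both arrays and fell past the 2-fold mark in CD4CD8aa IEL, but the size ranged from 2.31-fold to 18.7-fold, and the median over them was -1.71. Ccr1 read 8.43 and 0.236 at 1419609_at (695.8 and 19.1 before division), the second of them below the floor. Its other probe set, 1419610_at, was near the floor on both arrays, at 0.673 and 0.401, a difference of -0.75. The 2 Ccr1 probe sets gave a median of -2.57. Under a floor of 4 array medians Ccr1 was at -1.08 and Ccr2 at -2.42, both nearer to 0 than Ccr6 at -3.38.

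Monocytes and macrophages carry both of these receptors, and their markers were measured beside them. Of 11 listed markers 10 were found, 9 were above the floor on each array, and their summed signal was 32.2 in CD4 IEL and 30.1 in CD4CD8aa IEL. Csf1r, the macrophage growth factor receptor, had 9.79 and 10.2, Adgre1 1.72 and 1.60, and Lyz2 3.01 and 2.38. Of the 9 detected markers, 5 were lower in CD4CD8aa IEL by any amount, such as C1qb at 6.41 and 3.56. The other 4 were higher, such as Cd68 at 3.44 and 4.87. Itgam was below the floor on both arrays, at 0.394 and 0.0629, and Cd14 was 2.98-fold lower in CD4CD8aa IEL, at 1.90 and 0.637. The part of such cells in the receptor values was not tested. In RNA of a sorted population, fewer cells that carry a receptor and less of its RNA per cell cannot be told apart.

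Ccr4 and Ccr8, receptors of Th2, regulatory and skin-homing T cells, were dim. Ccr4, at 1421655_a_at, read 3.59 and 0.852 (296.1 and 69.1 before division), and its log2 difference of -2.07 became -0.84 under a floor of 2 array medians. Ccr8, at 1422291_at, read 1.96 and 0.109 (162.0 and 8.8 before division), of which the second lay below the floor. Without a floor the Ccr8 difference was -4.18, with the floor 2 times as high -1.30, and with a floor of 2 times the array median Ccr8 was no longer detected. Each of these 2 genes has a single probe set.

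**Figure D3:**
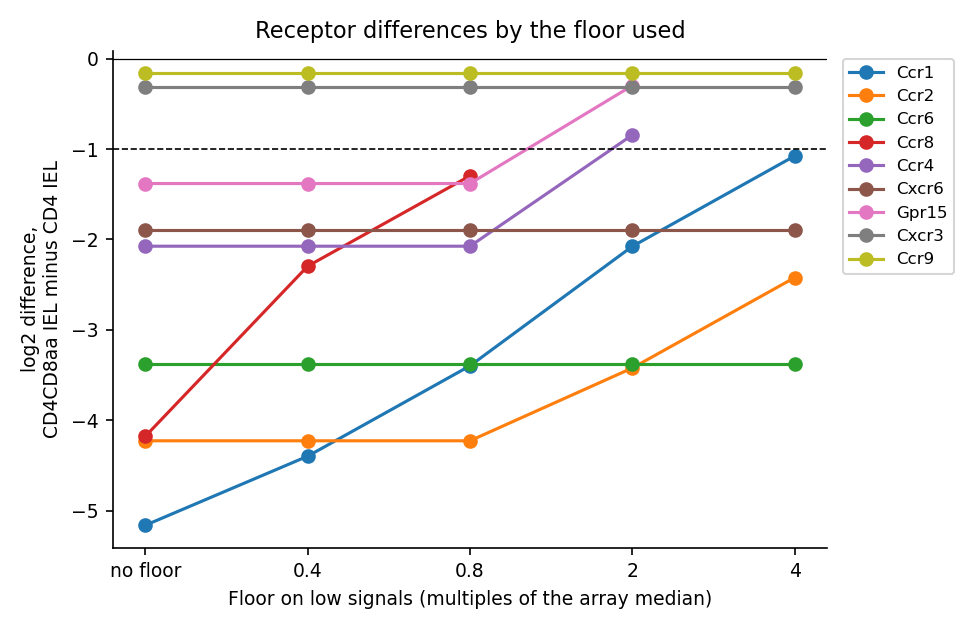
Log2 difference of each receptor, CD4CD8aa IEL minus CD4 IEL, on the y axis against the floor on low signals on the x axis, from no floor to 4 times the array median. The lines of Ccr6, Cxcr6, Cxcr3 and Ccr9 are flat, while those of Ccr1, Ccr2, Ccr4, Ccr8 and Gpr15 move towards 0 and a line ends where the receptor is no longer detected.

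Over the single probe sets, all 19 were above the floor on at least 1 array. Of these, 17 were lower in CD4CD8aa IEL, 12 of them at least 2-fold, against 6.97% of all detected probe sets. The other 2, both of Ccr9, were higher, none by 2-fold, against 6.73% of all. Ccr9, Ccr2, Ccr1 and Cxcr6 have several probe sets, and the other 5 genes have 1 each.

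Ccr9, Cxcr6, Ccr1 and Ccr2 lie in 1 cluster on chromosome 9. In RefSeq's GRCm38.p6 annotation the protein-coding genes from Ccr9 to Ccr2 follow in the order Ccr9, Fyco1, Cxcr6, Xcr1, Ccr1, Ccr1l1, Ccr3 and Ccr2, with Cxcr6 inside Fyco1 on the opposite strand. Some genes side by side in it differed in value, while the detected genes at its Ccr2 end, Ccr1, Ccr3 and Ccr2, were all lower. Fyco1, which surrounds Cxcr6, was at 13.8 and 22.8, a difference of 0.72, beside -1.89 for Cxcr6. Ccr3, the eosinophil receptor between Ccr1 and Ccr2, had 1.21 and 0.0641, at least 3.02-fold lower. Xcr1 was near the array median, at 1.28 and 1.83, and Ccr1l1 was not detected. Ccr4 and Ccr8 are on chromosome 9 outside these genes, Gpr15 is on 16, Ccr6 on 17 and Cxcr3 on X.

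**Figure D4:**
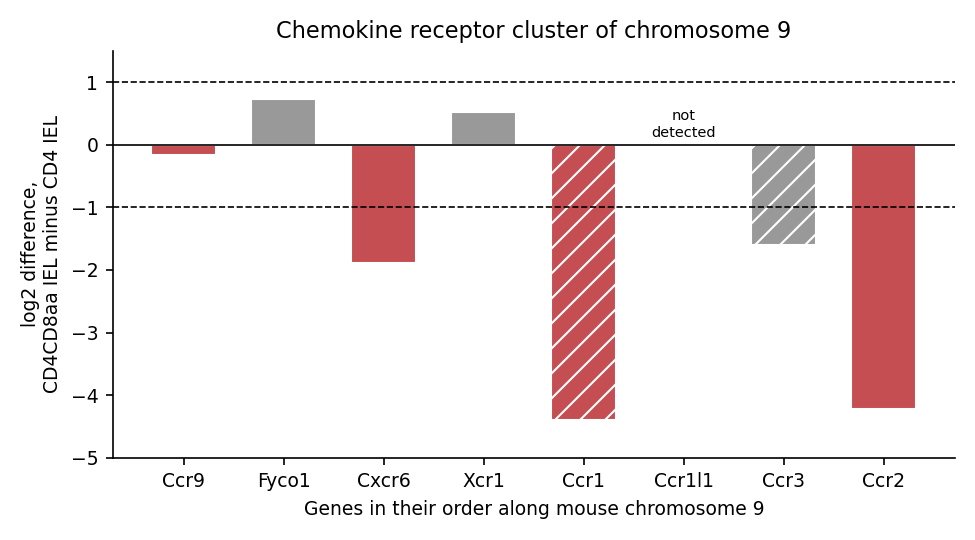
Log2 differences, CD4CD8aa IEL minus CD4 IEL, of the protein-coding genes from Ccr9 to Ccr2 in their order on chromosome 9, with the 4 receptors described here in red and other genes in grey. Hatched bars are lower bounds, dashed lines mark 2-fold, and the bars of Cxcr6, Ccr1, Ccr3 and Ccr2 reach below the lower line while those of Ccr9, Fyco1 and Xcr1 do not.

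The promoter windows of 4 receptors are shown to set 3 that were lower (Ccr6, Cxcr6 and Ccr2) beside Ccr9, which lay within 2-fold and neighbours Cxcr6. Each runs from 250 bases before to 50 after an annotated start in RefSeq, GRCm38.p6, read 5′ to 3′ on the gene's strand. Windows of all 9 receptors were searched on both strands for core motifs of 4 families of T cell transcription factors: AGGTCA of ROR and other nuclear receptors, TGTGGT of Runx factors, AGGTGT of T-box factors and AGATAA of GATA factors. Matches are in capitals, as the motif or its reverse complement, and no 2 motifs overlapped in these 4 windows. The windows lie at chr17:8235793-8236092 (Ccr6, first of 2 annotated starts), chr9:123806227-123806526 (Cxcr6), chr9:124101933-124102232 (Ccr2) and chr9:123766961-123767260 (Ccr9), all on the plus strand. The RefSeq gene Ccr2 begins upstream of its window, at an earlier start.
Ccr6: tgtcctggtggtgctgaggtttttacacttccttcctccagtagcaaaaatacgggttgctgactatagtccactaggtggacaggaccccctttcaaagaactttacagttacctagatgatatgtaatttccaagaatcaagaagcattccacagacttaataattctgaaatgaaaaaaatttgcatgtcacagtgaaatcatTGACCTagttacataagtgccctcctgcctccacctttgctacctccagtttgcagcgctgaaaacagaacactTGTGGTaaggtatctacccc
Cxcr6: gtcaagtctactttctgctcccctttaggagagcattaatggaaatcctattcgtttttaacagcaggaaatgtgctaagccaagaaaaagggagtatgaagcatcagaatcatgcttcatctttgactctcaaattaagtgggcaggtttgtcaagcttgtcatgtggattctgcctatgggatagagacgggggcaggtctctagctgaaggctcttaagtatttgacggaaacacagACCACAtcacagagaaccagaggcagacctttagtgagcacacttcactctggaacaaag
Ccr2: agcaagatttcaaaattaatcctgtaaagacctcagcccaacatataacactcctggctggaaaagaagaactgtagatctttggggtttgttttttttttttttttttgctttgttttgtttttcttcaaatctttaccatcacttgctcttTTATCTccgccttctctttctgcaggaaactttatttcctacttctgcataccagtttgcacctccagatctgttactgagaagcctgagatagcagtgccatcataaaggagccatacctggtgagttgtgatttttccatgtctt
Ccr9: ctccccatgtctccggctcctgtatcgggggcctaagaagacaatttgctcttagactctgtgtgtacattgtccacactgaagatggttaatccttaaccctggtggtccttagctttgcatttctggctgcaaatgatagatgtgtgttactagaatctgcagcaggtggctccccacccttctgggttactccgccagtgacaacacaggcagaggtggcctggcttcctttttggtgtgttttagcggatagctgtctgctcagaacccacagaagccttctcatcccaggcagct

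The Ccr6 window held 1 AGGTCA match, at base 207, and 1 TGTGGT match, at base 281. The Cxcr6 window held 1 TGTGGT match, at base 241, the Ccr2 window 1 AGATAA match, at base 154, and the Ccr9 window none of the 4 motifs. Among the windows of the other receptors, TGTGGT was found in those of Ccr1, Cxcr3 and Gpr15, and AGGTGT in that of Gpr15. AGATAA was in those of Ccr8 and the second Ccr6 start, and the Ccr4 window held none of the 4 motifs. The Cxcr3 window, of a receptor within 2-fold, had matches, and the Ccr4 window, of a receptor that was lower, had none. A link between motifs and differences was not tested. The Ccr4 window belongs to an annotated start downstream of where the RefSeq gene begins, and ends 8982 bases from that beginning. Of all 32851 promoter windows, 16.3% held AGGTCA, 16.8% TGTGGT, 13.7% AGGTGT and 11.2% AGATAA. A match describes these letters and is not a binding site.

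Other chemokine receptors, a list of 16, did not share the lower values as a group. Of the 15 found, 13 were detected, with 2 at least 2-fold lower in CD4CD8aa IEL, 0 higher and 11 within 2-fold, and their median log2 difference was 0.06, equal to that of all detected genes at 2 decimals. The 2 lower ones were Ccr3 and Ccr7, the lymph node homing receptor, which had signals of 1.005 and 0.053 and was at least 2.51-fold lower. Both lay near the array median in CD4 IEL, and neither was 2-fold lower with the floor 2 times as high.

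The ligands of the receptors, a list of 19 genes of which 17 were detected, went both ways, with 4 at least 2-fold lower, 4 at least 2-fold higher, 9 within 2-fold and a median of 0.14, beside 6.26% lower and 6.66% higher among all detected genes. Ccl20, the ligand of Ccr6, had signals of 6.85 and 0.216 and was, like its receptor, lower, by at least 17.1-fold. Ccl1, a ligand of Ccr8, had 11.8 and 2.43 and was 4.84-fold lower, and Ccl22, a ligand of Ccr4, had 1.43 and 0.403 and was 3.55-fold lower. The fourth, Cxcl9, a ligand of Cxcr3 named after its values were seen, was dim at 0.828 and 0.393, and at least 2.07-fold lower. The opposite held for Cxcl16, the ligand of Cxcr6, with 1.41 and 4.603, 3.27-fold higher, although its other probe set gave 0.53 on the log2 scale from signals near the floor. Ccl3, a ligand of Ccr1, was bright at 30.7 and 89.1 and 2.91-fold higher. Ccl2, a ligand of Ccr2, was at least 3.62-fold higher from 0.097 to 1.45. Ccl7 and Ccl12, also ligands of Ccr2, were below the floor on both arrays. Ccl4, a chemokine related to Ccl3, had 59.9 and 175.8, 2.94-fold higher. Ccl25, the ligand of Ccr9, was near the array median at 1.08 and 1.19.

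The receptors were set beside 17 ligands known to bind them, a pairing made after the values were seen. Ccl4 and Ccl5, also on the list of ligands, were left out of these pairs. Ccl5 was bright and within 2-fold, at 424 and 459, while Ccl4 was 2.94-fold higher in CD4CD8aa IEL. In 13 pairs the receptor was at least 2-fold lower, and the ligand was detected in 11 of these. The ligand was at least 2-fold lower in 3 of the 11, at least 2-fold higher in 3 and within 2-fold in 5. Epithelial cells also make several of these chemokines, and the summed signal of 11 epithelial markers was 44.5 in CD4 IEL and 39.0 in CD4CD8aa IEL, with 10 and 11 of them above the floor. Their part in the ligand values was not tested.

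**Figure D5:**
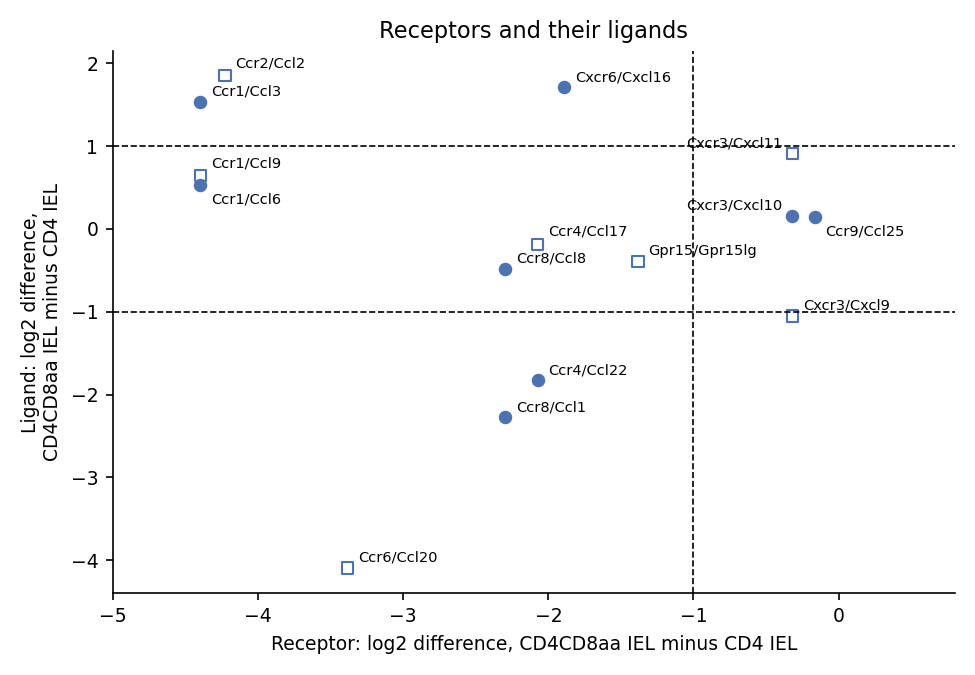
Log2 difference of the receptor on the x axis and of its ligand on the y axis, both CD4CD8aa IEL minus CD4 IEL, for the 15 pairs with a detected ligand. Open squares are ligands with 1 signal below the floor, dashed lines mark 2-fold, and ligands of lower receptors stand below (Ccl20, Ccl1, Ccl22), between and above (Ccl2, Cxcl16, Ccl3) the lines.

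Signal transduction below the receptors was taken as 30 genes for G protein subunits, kinases, exchange factors, arrestins and regulators. All were above the floor on both arrays, and their median log2 difference was 0.03. Of the 30, 29 lay within 2-fold, as did 15132 of the 17377 detected genes. At least 2-fold lower was 1 of the 30, near the 4.2% among all genes above the floor on both arrays. Pik3r5, the regulatory subunit of PI3-kinase gamma, was the 1 gene past 2-fold, with signals of 6.16 and 2.30, a difference of -1.42.

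The arrays had medians of 82.5 and 81.1 before division, and 70.0% and 69.9% of probe sets lay above the floor. Cd8a, the marker of the sort, was 76.8-fold higher in CD4CD8aa IEL (3.79 and 291.4), and Cd4 had 72.6 and 86.4. All 8 T cell markers were above 4 times the array median on both arrays, with summed signals of 1163 and 1332. Markers of other cells that carry some of these receptors were measured too. Over 6 NK cell and innate lymphoid cell genes the sum was 65.8 and 66.0, most of it from Rora, which T cells also express. At least 2-fold lower in CD4CD8aa IEL were 4 of the 6 (Areg, Eomes, Il5 and Klrb1c), against 6.26% of all detected genes. Of these, Il5 was dim, at 0.822 and 0.367, the second below the floor, and Klrb1c was 2.00-fold lower, at 1.41 and 0.707. Ncr1, the defining NK cell receptor, had 0.429 and 0.155. The 6 granulocyte and mast cell genes summed to 21.3 and 13.0, most of it from Kit, and the 6 dendritic cell genes to 31.0 and 35.7. The 4 B cell genes summed to 1.47 and 1.60, with 1 of them above the floor in CD4 IEL and 2 in CD4CD8aa IEL. The part of these cells in the receptor values was not tested.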

How the data were processed

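Affymetrix Mouse Genome 430 2.0 arrays were made from 1 RNA of each group, with Percoll-purified IEL and TRIzol extraction per the labels' protocols. GCOS 1.2 is named per the submitters' processing notes and GeneSpring GX10 in the series' design text. How probes were summarised and how the sort was gated is unstated. Per the file headers, the authors deposited raw and normalized intensities, and the second equalled the first over the array's median to within 4.98e-08. The deposited log2 fold is CD4 over CD4CD8aa, per the file headers, and has the opposite sign to the log2 differences here. The 2 columns of present or absent calls name no sample and were not used.

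The full-precision normalized intensities were floored at 0.4 array medians, their larger 30th percentile. Left out were 64 controls, 1399 probe sets naming several genes, 5820 naming none and 35 with symbols turned into dates. Differences were computed with Python 3.11.15, numpy 2.4.6 and pandas 2.3.3, and the steps were tested on simulated data. Precision is limited by having 1 array per group. The receptors, lists and settings were chosen with earlier results of these data known. Of the lists and cell type markers, 128 of 132 genes matched, 9 through an older symbol. Named genes are all 9 receptors, and of the other lists those at least 2-fold apart and above the array median on the brighter array. Other list genes, such as Csf1r, Rora, Kit, Il5, Xcr1, Ccl25 and Cxcl9, and neighbours of receptors were named after their values were seen. Motifs and ligand pairs were chosen after the values were seen. Alternatives changed the floor, the normalization and the choice of probe sets. Some genes of the lists are not reported here by name.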

Additional observations from a re-analysis of the deposited data

How the results depend on the processing

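The counts moved with the floor on low signals, since a higher floor tests fewer genes and shortens every fold against a dim array, and single receptors also moved with the choice of probe set. Of the receptors, 4 were at least 2-fold lower under a floor of 2 array medians (8 detected, median log2 difference -1.37), and again 4 under one of 4 (6 detected, median -1.48), namely Ccr1, Ccr2, Ccr6 and Cxcr6 in both cases, against 7 of 9 at the floor of 0.4. Other chemokine receptors 2-fold lower numbered 4 unfloored and 0 under each higher floor (0.8, 2 and 4 array medians). Lower ligands numbered 7 unfloored and then 2, 2 and 1 under these floors, higher ligands 2 and lower signalling genes 0 under the last. Over all genes, 2676 were lower and 2706 higher unfloored, 483 and 447 at 0.8, 219 and 204 at 2, and 140 and 141 at 4. Quantile normalization, raw signals and the median over probe sets left 7 receptors lower and 0 higher, and no receptor changed direction under any alternative run. The median over probe sets moved Ccr1 from -4.40 to -2.57 and Ccr2 from -4.23 to -1.71, so that Ccr6, at -3.38, then had the largest difference, and gave 975 lower and 989 higher genes. The series matrix held the values used here, so it gave no alternative. No paired analysis was possible because each group has 1 array. Leaving out a replicate was not possible for the same reason.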

Other observations

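Some cell type markers were also at least 2-fold apart and above the array median on the brighter array. Areg, which encodes the growth factor amphiregulin, read 13.0 in CD4 IEL but 3.58 in CD4CD8aa IEL, or -1.86 on the log2 scale, and Eomes, a T-box factor, 2.17 and 0.425. Itgax, which encodes CD11c, was higher in CD4CD8aa IEL, at 1.76 and 5.33, as was Cd3e, by 2.01-fold. Krt18, an epithelial keratin, had 13.3 and 4.74, and Muc2 1.74 and 0.798, whereas Vil1 had 0.427 and 1.12 and Lgr5 0.0945 and 1.45, so epithelial markers went both ways. Cd8b1 had 0.514 and 1.29, and Klrb1c 1.41 and 0.707. On the other side of Gpr15 from Cpox lies Cldnd1, whose 3 probe sets were all lower in CD4CD8aa IEL, with log2 differences of -0.41, -0.78 and -1.05.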
